A study of Homo sapiens with 9 samples.

Results

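The small nucleolar RNAs (snoRNAs) and small Cajal body RNAs (scaRNAs) of human colorectal carcinoma RKO cells were examined in parental cells and in clones with a targeted DIP2C gene. Members were chosen by symbol and by level: a row counted as a member if its symbol began with SNORA, SNORD or SCARNA and its mean count over the 9 samples was at least 10. This rule left 241 members of 386 such rows and of 23619 rows in all. They comprised 88 H/ACA RNAs (SNORA), 130 C/D RNAs (SNORD) and 23 Cajal body RNAs (SCARNA). Of the 145 rows below the rule, 99 were at 0 in all samples. The members just inside it were SNORD95, SNORA36C and SNORD1A, with mean counts of 10.2, 10.6 and 10.8. Just outside it lay SNORD9, SNORD49B and SNORA70B, with 9.53, 6.13 and 2.99. All 241 members passed the filter on low counts that left 15532 genes for testing.

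The samples were 2 of parental RKO cells (RKOparental-1 and RKOparental-2), 2 DIP2C-/- clones (E3 and C10) and 5 DIP2C+/- clones (A6-C9, A9-A12, F6-A7, G1-A5 and H9-A4). All were grown for 48 h before RNA isolation, with no treatment given in the labels. Part of exon 9 of DIP2C had been deleted by recombinant adeno-associated virus targeting, with the selection cassette removed by Cre. The study describes fewer heterozygous clones than the labels list, and whether some of the 5 share an origin is not given in the sources used here, so they may not be independent. Each clone was grown from a single cell, both DIP2C-/- clones descend from a heterozygous clone, and the parental cells had not been through targeting or cloning. No cloned line with intact DIP2C was analysed here, so effects of cloning and of genotype cannot be told apart. Each sample was 1 library, and nothing in the labels says that the parental samples came from separate cultures. The p-values therefore measure the spread between these samples, which may be technical.

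SnoRNAs are short nuclear RNAs, most of them cut out of introns of host genes, that guide modification of other RNAs by base pairing. C/D RNAs carry a box C and a box D, bind fibrillarin with NOP56 and NOP58, and direct ribose methylation, chiefly of ribosomal RNA. H/ACA RNAs fold into paired hairpins ending in an ACA triplet, bind the pseudouridine synthase dyskerin, and direct pseudouridylation. Cajal body RNAs contain either or both kinds of element and act mainly on the spliceosomal small nuclear RNAs.

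The sequences of the members on which the comparisons below turn show these elements. They were read from the GRCh37 genome at GENCODE coordinates, 5′ to 3′ along the RNA, with capitals for TGATGA (box C) within the first 20 bases and CTGA (box D) within the last 20 bases of C/D RNAs, and for ACA within the last 6 bases of the others. The first set did not overlap the parental samples in the knockout clones and was higher there, except that SNORA7A was so in the DIP2C-/- clones alone and is shown beside its near copy SNORA7B. They lay as follows: SNORD53 at chr2:29149933-29150010 (plus strand), SNORD96A at chr5:180668814-180668892 (minus strand), SNORD105B at chr19:10220433-10220511 (plus strand), SNORA7B at chr3:129116053-129116191 (minus strand), SNORA7A at chr3:12881811-12881949 (minus strand) and SNORA74B at chr5:172447731-172447931 (plus strand).
SNORD53: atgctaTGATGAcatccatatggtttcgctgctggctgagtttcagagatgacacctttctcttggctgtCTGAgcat
SNORD96A: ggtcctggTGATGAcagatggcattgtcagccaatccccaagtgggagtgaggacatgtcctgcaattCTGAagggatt
SNORD105B: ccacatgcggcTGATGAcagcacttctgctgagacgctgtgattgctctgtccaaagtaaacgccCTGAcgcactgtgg
SNORA7B: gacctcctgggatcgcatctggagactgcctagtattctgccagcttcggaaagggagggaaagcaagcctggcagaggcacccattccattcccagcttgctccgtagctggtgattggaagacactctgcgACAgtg
SNORA7A: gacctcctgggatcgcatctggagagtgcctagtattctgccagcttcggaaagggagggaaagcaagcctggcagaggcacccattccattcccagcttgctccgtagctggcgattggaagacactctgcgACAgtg
SNORA74B: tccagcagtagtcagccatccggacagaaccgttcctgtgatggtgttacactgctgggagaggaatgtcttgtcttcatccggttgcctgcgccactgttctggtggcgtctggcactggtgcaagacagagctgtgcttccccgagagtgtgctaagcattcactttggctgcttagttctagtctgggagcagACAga
Between SNORA7A and SNORA7B there were 2 substitutions over 139 bases (98.6% identity), G26C and C114T, with the base of SNORA7A first and positions counted from its 5′ end. The next members were lower in every knockout clone than in both parental samples: SNORD68 at chr16:89627842-89627925 (plus strand) and SCARNA11 at chr12:6690640-6690775 (minus strand).
SNORD68: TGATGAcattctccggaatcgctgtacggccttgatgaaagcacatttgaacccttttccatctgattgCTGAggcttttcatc
SCARNA11: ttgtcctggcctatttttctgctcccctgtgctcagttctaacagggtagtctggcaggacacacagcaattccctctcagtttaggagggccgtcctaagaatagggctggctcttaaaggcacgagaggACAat
The last set was chosen after its values were seen, for a difference between the genotypes of the clones (SNORA57) and for 1 clone that stood apart (SNORD83A, shown with its neighbour SNORD83B): SNORA57 at chr11:62432894-62433042 (plus strand), SNORD83A at chr22:39711218-39711312 (minus strand) and SNORD83B at chr22:39709824-39709916 (minus strand).
SNORA57: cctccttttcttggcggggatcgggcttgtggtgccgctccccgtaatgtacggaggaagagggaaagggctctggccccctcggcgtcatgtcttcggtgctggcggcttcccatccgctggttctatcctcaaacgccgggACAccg
SNORD83A: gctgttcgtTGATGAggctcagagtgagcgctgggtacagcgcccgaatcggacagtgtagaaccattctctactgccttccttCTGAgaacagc
SNORD83B: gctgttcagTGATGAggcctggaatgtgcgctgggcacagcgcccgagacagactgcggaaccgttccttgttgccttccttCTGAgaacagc
TGATGA was found in 61.9% of 97 C/D RNAs with GRCh37 coordinates, in 0% of 71 H/ACA RNAs and in 23.5% of 17 Cajal body RNAs. CTGA was found in 99.0%, 11.3% and 35.3% of the same groups. ACA was found in 94.4% of the H/ACA RNAs, 76.5% of the Cajal body RNAs and 10.3% of the C/D RNAs. Median lengths in RefSeq were 76 bases for C/D RNAs, 134 for H/ACA RNAs and 166 for Cajal body RNAs. By position in RefSeq, 239 members lay within 144 distinct host genes, with 8 members each in TAF1D, SNHG1 and GAS5. Host and member were counted as separate rows, except that the host of SCARNA17 was matched to the member's own row. The strand setting of the counting is not given in the sources used here.

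Totals ran from 14772593 to 21486483 estimated counts per sample. The members together took 2.14% of the total in F6-A7 and 3.73% in RKOparental-1, with the other samples between. DIP2C itself was at 61.0 and 70.9 counts per 1000000 (CPM) in the parental samples, at 17.4 (E3) and 22.8 (C10) in the DIP2C-/- clones, and from 33.7 to 56.3 in the DIP2C+/- clones. The 3 groups did not overlap in DIP2C level, and the count covers the whole gene rather than the deleted part. Same-genotype samples differed far beyond counting noise (chi-square per degree of freedom 20.9 to 137.7), so no pair of same-genotype files held 1 library deposited again. Separate libraries from 1 clone would differ as well, and pairs across genotypes were not compared in this way.

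Per base of RNA, C/D RNAs held the highest levels. SNORD27 and SNORD100, both guides for small-subunit rRNA methylation, had mean levels of 31680 and 27620 CPM per kilobase. SNORD46, SNORD104 and SNORD83B followed, at 11850, 10370 and 8983 CPM per kilobase. Among H/ACA RNAs the leading levels were those of SNORA31 (6471 CPM per kilobase), SNORA7A (5353), SNORA44 (4757), SNORA63 (3925) and SNORA10 (3461), which guide pseudouridylation of ribosomal RNA. SCARNA2, a guide for U2 small nuclear RNA, was at 1177 CPM per kilobase, and SCARNA6 and SCARNA13 were at 496 and 470. The 5 most abundant members made up 36.9% of the summed CPM of the C/D class, 33.9% of the H/ACA class and 66.5% of the Cajal body class.

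Summed over each class, levels varied between samples of 1 genotype as much as between genotypes. The C/D sum was 24985 CPM in RKOparental-1 and 14322 in RKOparental-2, a ratio of 1.74. In the DIP2C-/- clones it was 17568 (E3) and 22697 (C10), and in the DIP2C+/- clones it was 15357 (A6-C9), 22619 (A9-A12), 12795 (F6-A7), 24941 (G1-A5) and 20644 (H9-A4). RKOparental-2, F6-A7 and A6-C9 were thus the low samples, and all 3 genotypes overlapped. The H/ACA sum was 9847 and 7926 CPM in the parental samples, 8908 and 9060 in E3 and C10, and from 6906 (F6-A7) to 11813 (H9-A4) in the DIP2C+/- clones. The Cajal body sum was nearly equal in the parental samples, at 1444 and 1424 CPM, was 1339 and 1386 in E3 and C10, and ran from 1340 (F6-A7) to 1667 (G1-A5) in the DIP2C+/- clones. Both DIP2C-/- clones were below both parental samples in this class, by less than the range of the DIP2C+/- clones. As ratios of genotype means, DIP2C-/- over parental was 1.02 for C/D, 1.01 for H/ACA and 0.95 for Cajal body RNAs, and DIP2C+/- over parental was 0.981, 1.11 and 1.07. The C/D ratios rested on which parental sample was used: without RKOparental-1 their log2 values were 0.49 (DIP2C-/-) and 0.43 (DIP2C+/-), against 0.03 and -0.03 with both.

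**Figure D1:**
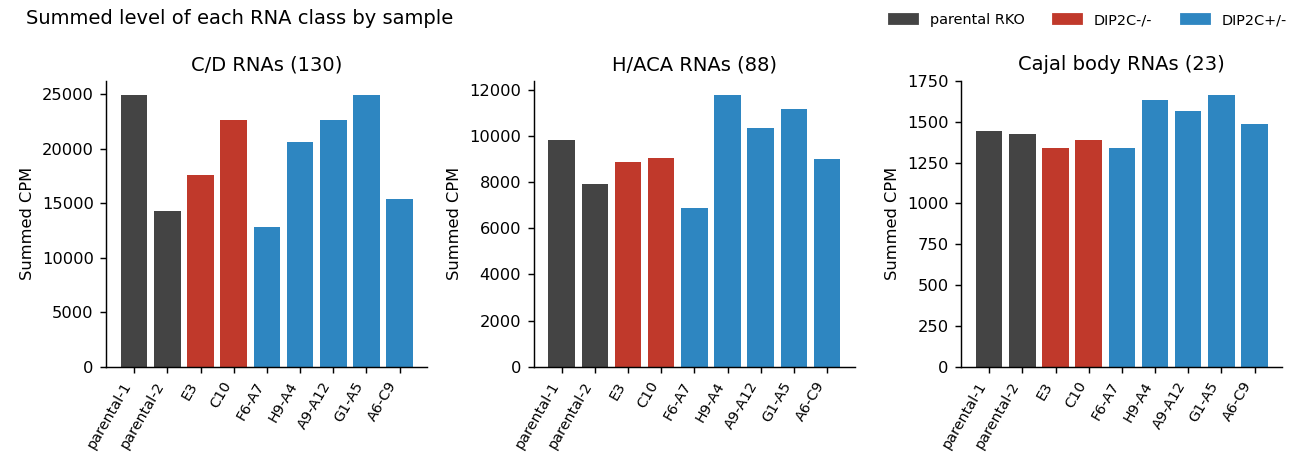
Summed CPM (vertical axis, from 0) of the C/D, H/ACA and Cajal body members in each of the 9 samples, coloured by genotype, 1 library per bar. C/D sums run from 12795 in F6-A7 to 24985 in RKOparental-1, with no separation of the genotypes, while the Cajal body sums of the parental samples are 1444 and 1424.

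The parental samples differed from each other in snoRNAs more than in other genes. The log2 ratio of RKOparental-1 to RKOparental-2 had a median of 0.65 over the C/D RNAs, 0.32 over the H/ACA RNAs and 0.23 over the Cajal body RNAs, against 0.00 over all 15532 genes tested. Its median absolute size was 0.78, 0.58 and 0.33 in the 3 classes, against 0.24 over all genes. RKOparental-1 was the higher sample for 103 of 130 C/D RNAs, 55 of 88 H/ACA RNAs and 14 of 23 Cajal body RNAs. At least 2-fold higher in RKOparental-1 were 40 C/D, 14 H/ACA and 1 Cajal body RNAs, together 55 of 241 (22.8%), where 3.62% of all genes were. At least 2-fold higher in RKOparental-2 were 10 members (4.15%), close to the 4.28% of all genes. For 204 members the ratio was past 1.96 counting errors (84.6%, against 46.6% of all genes).

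Individual members showed how uneven this was. SNORD100 was at 3405 CPM in RKOparental-1 and 1047 in RKOparental-2, and its values in the clones ran from 1047 (F6-A7) to 3804 (C10). SNORD27 was at 3992 and 1780 CPM, above and within the clones' range of 1453 to 2534. SNORA31, within TPT1, was at 1069 and 555 CPM. These abundant RNAs had counting errors of 0.02 or less on the log2 scale, so depth did not limit the comparison of their libraries. The largest ratios towards RKOparental-1 were those of SCARNA4 (log2 ratio 2.2, counting error 0.25), SNORA72 (2.15, 0.09) and SNORA22 (2.04, 0.19). Towards RKOparental-2 they were those of SNORD58B (-3.72, 0.66), SNORA43 (-2.54, 0.17) and SNORD95 (-1.86, 0.81), the first and last of them from few counts. A few abundant members were close to equal, among them SNORA7A at 428 and 443 CPM, SNORA10 at 450 and 482, and SNORA7B at 129 and 132.

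RNA length moved with this ratio across the classes. Its median was 0.67 for the 29 members of 70 bases or fewer, 0.99 for the 10 members of 101 to 120 bases, 0.33 for the 90 members of 121 to 140 bases and 0.11 for the 14 members of 201 to 500 bases. Spearman's rho between length and the ratio was -0.26 over 241 members, which share the same pair of libraries. Within the C/D class it was -0.04 (n = 130) and within the H/ACA class -0.21 (n = 88). RMRP and RPPH1, the RNA subunits of RNase MRP and RNase P, are RNAs with their own promoters that were not part of this length comparison. Both were higher in RKOparental-2, with log2 ratios of -0.68 (6020 and 9671 CPM) and -0.62 (2182 and 3348 CPM). Other such RNAs were less far from 0 and not all on that side. RNU12, RNU4ATAC and TERC were at -0.54, -0.29 and -0.17, and RNU11 was at 0.43. Silica columns of the kind used here for RNA isolation keep short RNAs poorly, and the part of isolation in these differences was not tested.

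**Figure D2:**
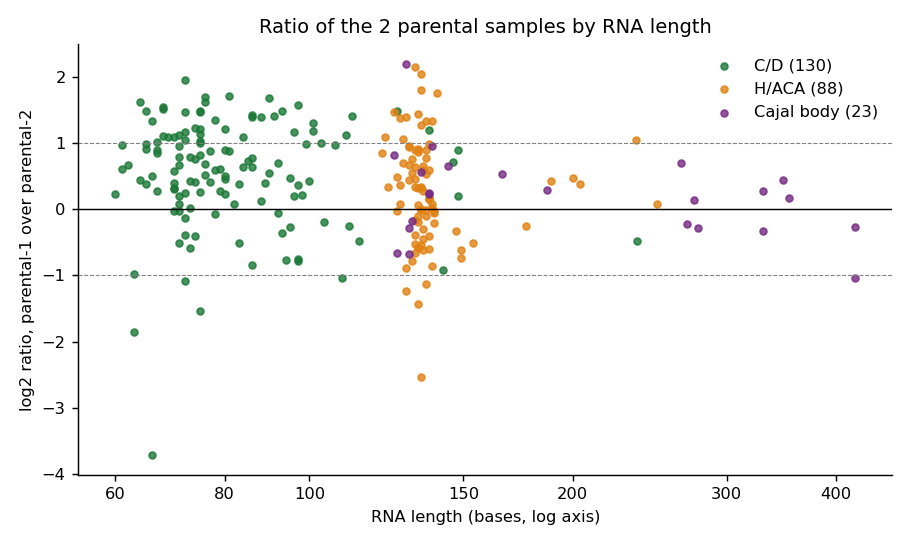
Log2 ratio of RKOparental-1 to RKOparental-2 (vertical axis) against RNA length in bases (horizontal log axis) for the 241 members, 1 point each, coloured by class, with dashed lines at 2-fold. Most C/D points lie above 0 (103 of 130), and SNORD58B, at -3.72, is the lowest point.

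The host genes did not share the members' shift. Over the 231 members whose host was tested, 177 had a higher ratio towards RKOparental-1 than their host gene, and the Pearson correlation of member and host ratios was -0.04 (members of 1 host share that host's value). Of 138 such hosts, 87 were lower in RKOparental-1. SCARNA17 was matched to its own row as host and is among these pairs. The strand of the host was checked for 149 of the 239 members with a host. GAS5, a non-coding host, was at 123 and 199 CPM in the parental samples (log2 ratio -0.69), while all 8 of its C/D members were higher in RKOparental-1, with ratios from 0.21 to 1.72. SNHG1, another non-coding host, had a ratio of -0.19 and its 8 members ranged from 0.26 to 1.55. The ribosomal protein gene RPL23A was at -0.88, and its 4 members were between 0.60 and 1.05. Of the 20 host genes with 3 or more members that are plotted, 10 had all members higher in RKOparental-1, and the other 10 had members on both sides, as in RPL13A, where they ran from -0.85 to 0.50.

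**Figure D3:**
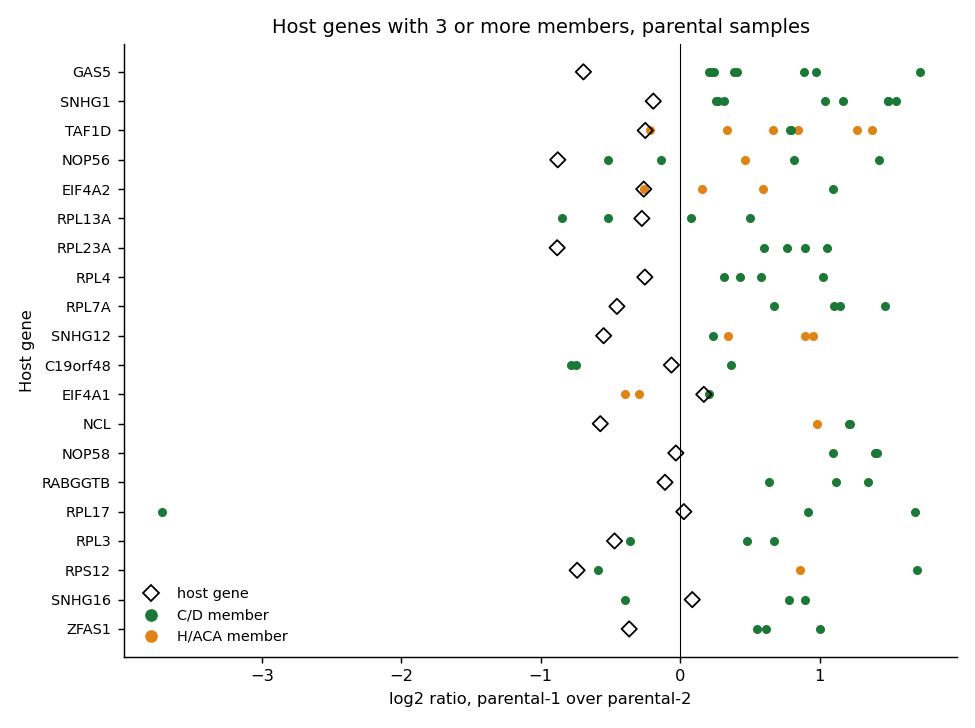
Log2 ratio of RKOparental-1 to RKOparental-2 (horizontal axis) for 20 host genes with 3 or more members (open diamonds) and for their 83 members (points, coloured by class). Of the members, 75 lie to the right of their host's diamond, and 17 of the hosts lie left of 0.

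The spread was also wide within both knockout genotypes. Over all members the median absolute log2 ratio was 0.66 between the parental samples, 0.46 between E3 and C10, and from 0.37 to 1.04 over the 10 pairs of DIP2C+/- clones, against 0.24, 0.23 and 0.27 to 0.41 over all genes. In the fit, 189 of 241 members had a biological coefficient of variation above the trend for their level, against 3776 of 15532 genes. Its median was 0.331 for the members, where the trend at their levels gave 0.232.

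With that spread, no member passed the threshold in any comparison of genotypes (edgeR's quasi-likelihood test, adjusted p under 0.05 over 15532 genes). DIP2C-/- against parental RKO called 0.00644% of all genes (1 gene), DIP2C+/- against parental RKO 0.0966% (15 genes), and all 7 knockout clones against parental RKO 0.18% (28 genes). DIP2C+/- against DIP2C-/- called 0% of them. DESeq2's Wald test on the same counts called 6, 2, 2 and 3 members in these 4 comparisons, where it called 1.9%, 1.23%, 1.96% and 0.0386% of all genes. The 6 in DIP2C-/- clones were SCARNA22, SNORA7B and SNORD53 (higher) and SCARNA2, SNORA43 and SNORA57 (lower), and the 2 in each of the next comparisons were SNORA7B and SNORD53. Fitting only the parental and DIP2C-/- samples with edgeR gave 19 called members, 9 higher and 10 lower, where 12.6% of all genes were called. Leaving clone H9-A4 out of the fit of all samples gave 5, 2 and 5 called members against parental RKO, where 4.76%, 7.95% and 8.95% of all genes were called. SNORA7B and SNORD53 were among them in all 3, SNORA43 in 2, and SNORA57, SCARNA22, SNORD58B and SNORD68 in 1 each.

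Without adjustment (p under 0.05), the members' counts were near or under the background against parental RKO. In DIP2C-/- clones 11 members (4.56%) were higher and 14 (5.81%) lower, against 5.94% and 6.74% of all genes. In DIP2C+/- clones 9 (3.73%) were higher and 6 (2.49%) lower, against 6.51% and 5.05%. Over all 7 clones 13 (5.39%) were higher and 5 (2.07%) lower, against 6.91% and 6.47%. Between the clones, 18 members (7.47%) were higher in DIP2C+/- than in DIP2C-/- clones and 5 (2.07%) lower, against 3.64% and 1.93% of all genes. Of those 18, 11 were H/ACA, 4 Cajal body and 3 C/D RNAs.

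Counted instead by groups that did not overlap, DIP2C-/- clones were above both parental samples for 42 members (17.4%, background 26.9%) and below them for 46 (19.1%, background 26.3%). DIP2C+/- clones were all above for 9 members (3.73%, background 7.15%) and all below for 3 (1.24%, background 7.11%). Over all 7 clones the counts were 6 (2.49%, background 5.41%) and 3 (1.24%, background 5.54%). DIP2C+/- clones lay wholly above DIP2C-/- clones for 15 members (6.22%, background 6.86%) and wholly below for 8 (3.32%, background 5.05%). In none of these did the members exceed the share over all genes.

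By class, median log2 fold changes over all samples were close to 0. In DIP2C-/- clones against parental RKO they were 0.05 for C/D (69 of 130 above 0), -0.12 for H/ACA (39 of 88) and -0.17 for Cajal body RNAs (10 of 23), against 0.02 over all genes. In DIP2C+/- clones they were 0.05 (71 of 130), 0.18 (59 of 88) and 0.02 (13 of 23), again against 0.02. In DIP2C+/- against DIP2C-/- clones they were 0.00, 0.23 (63 of 88) and 0.13, against 0.01. The medians against parental RKO moved with the parental sample used. Without RKOparental-1 the C/D median was 0.43 in DIP2C-/- and 0.45 in DIP2C+/- clones, and without RKOparental-2 it was -0.21 and -0.26. The H/ACA median was 0.13 and 0.36 without RKOparental-1 and -0.28 and 0.15 without RKOparental-2. The Cajal body median was 0.05 and 0.26 without RKOparental-1 and -0.41 and 0.09 without RKOparental-2. Leaving out C10 instead gave an H/ACA median of -0.40 in DIP2C-/- clones.

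Clone by clone, the genotypes overlapped in every class. The median log2 difference from the parental mean over the H/ACA RNAs was -0.28 in E3 and 0.03 in C10, and it was 0.04, 0.37, -0.62, 0.40 and 0.36 in A6-C9, A9-A12, F6-A7, G1-A5 and H9-A4. Over the C/D RNAs it was -0.07, 0.23, -0.32, 0.37, -0.56, 0.45 and 0.19 in the same order. F6-A7 was the lowest clone in all 3 classes. Past 2-fold below the parental mean in F6-A7 were 60 members (24.9%, background 5.97%) and past 2-fold above it 3 (1.24%, background 8.13%). A6-C9 had 17 below (7.05%, background 7.84%), of which 14 were C/D RNAs, and 10 above (4.15%, background 6.19%). H9-A4 had 21 above (8.71%, background 3.26%), of which 17 were H/ACA RNAs, and 8 below (3.32%, background 4.18%). G1-A5 had 30 above (12.4%, background 4.01%) and 7 below (2.9%, background 7.96%). A9-A12 had 24 above (9.96%, background 7.33%) and 2 below (0.83%, background 6.55%).

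Of the DIP2C-/- clones, E3 had 27 members past 2-fold below (11.2%, background 5.47%) and 8 above (3.32%, background 8.95%). C10 had 15 below (6.22%, background 6.23%) and 22 above (9.13%, background 5.7%). These counts are descriptions of single libraries, and the parental mean against which they were taken joins samples that differed as described above.

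**Figure D4:**
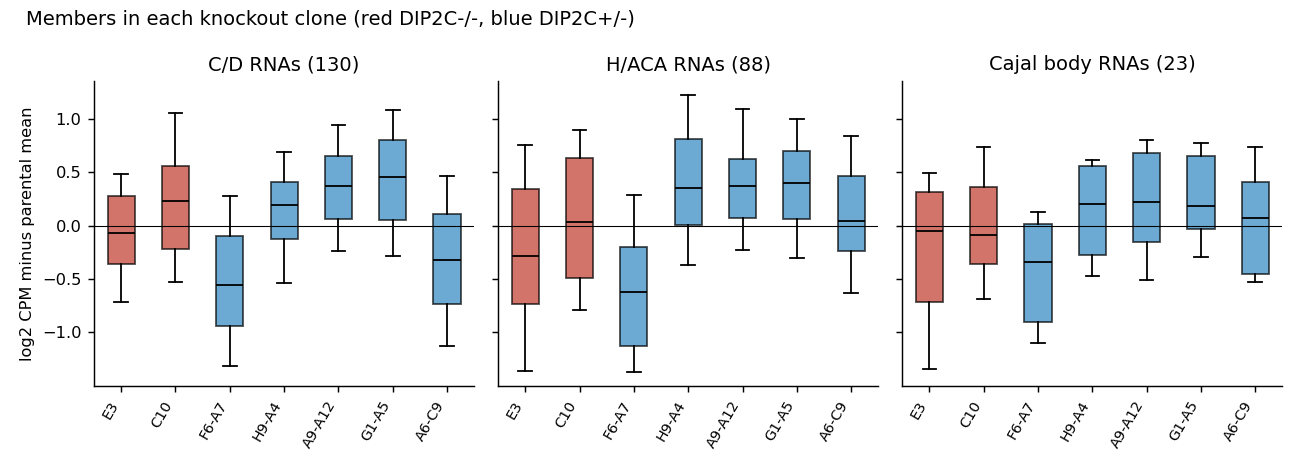
Log2 CPM minus the mean of the parental samples (vertical axis) over the members of each class in the 7 knockout clones, with boxes at the quartiles, lines at the medians and whiskers at the 10th and 90th percentiles. F6-A7 has the lowest median in each class (-0.56 for C/D, -0.62 for H/ACA and -0.34 for Cajal body RNAs), and G1-A5 has the highest for C/D (0.45) and H/ACA RNAs (0.40).

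Of the 6 members above both parental samples in all 7 clones, SNORD53 and SNORA7B had the largest log2 fold changes. SNORA7B, a guide for pseudouridylation of large-subunit rRNA in the pseudogene RPL32P3, was at 129 and 132 CPM in the parental samples, at 299.8 (E3) and 242.6 (C10), and at 247, 258, 276, 195 and 368 in A6-C9, A9-A12, F6-A7, G1-A5 and H9-A4. Every clone was above both parental samples. The log2 fold change over all 7 clones was 1.04 (SE 0.22), with an edgeR adjusted p of 0.135 and a range of 0.000844 to 0.815 over the alternatives. SNORA7A, which differs from it by 2 bases and lies in the ribosomal protein gene RPL32, was at 428 and 443 CPM in parental cells, 1302 and 878 in E3 and C10, and from 317 (F6-A7) to 1384 (H9-A4) in the DIP2C+/- clones. With copies this alike, reads may have been divided between them, and the values of both are uncertain. Whether SNORA7A's counts were whole multiples of a sample's smallest step cannot decide this. At counts this high a small error in the step alone makes them not whole.

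SNORD53, a C/D guide for large-subunit rRNA in WDR43, was at 14.9 and 15.6 CPM in the parental samples, 31.2 and 49.1 in E3 and C10, and 30.5, 47.4, 24.9, 32.3 and 23.9 in the DIP2C+/- clones in that order. All clones were above both parental samples, at a log2 fold change of 1.16 (SE 0.29, edgeR adjusted p 0.205, 0.00599 to 0.815 over the alternatives). SNORD92, another member in WDR43, was at 299.6 and 228 CPM in the parental samples, 351 and 622 in E3 and C10, and 282 to 506 in the DIP2C+/- clones. The host WDR43 was at 223 and 187 CPM in parental cells and 193 to 268 in the clones, which overlapped.

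Smaller differences of the same kind were seen in 3 further named members. SNORA74B, an H/ACA guide in ATP6V0E1, was at 20.4 and 15.7 CPM in parental cells and from 21.8 to 42.9 in the clones (log2 fold change 0.77, SE 0.28, edgeR adjusted p 0.319). SNORD96A, a guide for 5.8S rRNA, was at 6.22 and 8.15 CPM in parental cells and from 8.22 to 18.4 in the clones (0.81, SE 0.35, adjusted p 0.359). SNORD105B was at 17.9 and 18.7 CPM and from 19.7 to 39.1 (0.55, SE 0.25, adjusted p 0.378). In all 3 the lowest clone lay just above the higher parental sample.

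Lower in every knockout clone were SNORD68, SCARNA11 and SCARNA9. SNORD68, in an intron of RPL13, was at 0.826 and 1.88 CPM in the parental samples and between 0.323 and 0.483 in the clones, all from few counts (log2 fold change -1.78, SE 0.42, edgeR adjusted p 0.185, 0.0424 to 0.815 over the alternatives). SCARNA11 was at 3.20 and 2.72 CPM in parental cells and from 1.10 (E3) to 2.66 (G1-A5) in the clones. SCARNA9, a U2 guide, was at 13.7 and 12.2 CPM and from 7.45 (A6-C9) to 10.7 (C10).

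SCARNA22, in WHSC1, was at 40.4 and 22.8 CPM in parental cells, 101 (E3) and 56.6 (C10) in DIP2C-/- clones and 39.8 to 52.4 in DIP2C+/- clones (log2 fold change in DIP2C-/- 1.32, SE 0.32, edgeR adjusted p 0.295). SNORD80, 1 of the GAS5 members, was at 9.92 and 8.57 CPM in parental cells, 2.45 and 4.41 in the DIP2C-/- clones, and from 5.21 to 25.9 in the DIP2C+/- clones. SNORD50A, in SNHG5, was at 2.70 and 8.04 CPM in parental cells and 1.29 and 2.44 in DIP2C-/- clones, with C10 close to RKOparental-1. SNORD67 was at 25.1 and 30.0 CPM in parental cells, 31.2 in E3, 114 in C10 and 66.6, 52.6, 19.7, 59.4 and 49.5 in A6-C9, A9-A12, F6-A7, G1-A5 and H9-A4. Its DIP2C-/- difference thus lay in C10, and 4 of the 5 DIP2C+/- clones were also above both parental samples. SNORD72 was at 0.936 and 0.627 CPM in parental cells, 1.10 in E3, 3.42 in C10 and from 0.409 (A6-C9) to 2.12 (G1-A5) in the DIP2C+/- clones.

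SNORA43 and SNORD58B were close to undetected in the DIP2C-/- clones, and both were highest in RKOparental-2. SNORA43, in SNHG7, was at 3.97 and 23.6 CPM in the parental samples, 0 in E3, 0.156 in C10 and from 0.453 to 7.84 in the DIP2C+/- clones. The DIP2C-/- clones held 3 counts in all against 522 in the parental samples, a ratio of 0.00618 (exact 95% interval 0.00127 to 0.0181, counting error only). RKOparental-1 alone was also above both DIP2C-/- clones, and without RKOparental-2 the fitted log2 fold change was -5.46, against -7.24 with both (edgeR adjusted p 0.295, 0.00389 to 0.768 over the alternatives). SNORD58B, in RPL17, was at 0.220 and 4.23 CPM in parental cells and at 0 in both DIP2C-/- clones. Against a floor of 3 counts per library (0.179 CPM), it was at least 12.5-fold lower there than the parental mean of 2.23 CPM. That bound rests on RKOparental-2 alone, as RKOparental-1, at 0.220 CPM, was itself close to the floor. It was also at 0 in 3 of the 5 DIP2C+/- clones, and its other counts were few. Many counts of both were not whole multiples of the step, so reads shared with other loci may enter them. RefSeq names SNORA43 as SNORA17B, and the member SNORA17, also in SNHG7, as SNORA17A. SNORA17 had a mean count of 3314, against 89.6 for SNORA43, and sharing of reads between them was not tested. SNORA43's host SNHG7 was at 974.5 to 1639 CPM in parental cells, H9-A4 and G1-A5 and at 676 to 960 in the other clones.

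SNORA57 had the lowest p of the members between the clones' genotypes and was chosen after its values were seen. This H/ACA guide for small-subunit rRNA, in METTL12, was at 159.8 (E3) and 189.9 (C10) CPM in the DIP2C-/- clones and at 553, 483, 549, 565 and 511 in the DIP2C+/- clones in the order used above. The parental samples were at 334 and 555 CPM, so that RKOparental-2 fell among the DIP2C+/- clones and RKOparental-1 between the groups. DIP2C+/- against DIP2C-/- gave a log2 fold change of 1.61 (SE 0.20) with an edgeR adjusted p of 0.130, and DIP2C-/- against parental RKO gave -1.35 (SE 0.22) with 0.140. The first passed the threshold with robust dispersion shrinkage (adjusted p 0.0466), in the clones alone (0.0205) and without RKOparental-1 or RKOparental-2 (0.0238 and 0.0254), within a range of 5.2e-11 to 1 over all alternatives. METTL12 did not follow it, at 6.06 and 6.74 CPM in E3 and C10 and 4.35 to 9.44 in the DIP2C+/- clones.

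SNORD17 and SNORA38B, also singled out after their values were seen, were the other members that DESeq2 called between the clones. SNORD17, a long C/D RNA, was at 95.1 and 124.5 CPM in DIP2C-/- clones and 192 to 221 in DIP2C+/- clones, with 129 and 181 in parental cells (log2 fold change between clones 0.92, SE 0.17, edgeR adjusted p 0.878). SNORA38B was at 19.3 and 23.9 CPM in DIP2C-/- clones and 36.7 to 89.2 in DIP2C+/- clones, with 39.6 and 44.2 in parental cells (1.52, SE 0.35, adjusted p 0.878). SCARNA2, for which no host gene was found, was at 298 and 358 CPM in DIP2C-/- clones, 451 to 632 in DIP2C+/- clones and 505 and 608 in parental cells, so only the DIP2C-/- clones stood apart (0.71, SE 0.18, adjusted p 0.878).

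Clone G1-A5 stood apart in SNORD83A. Its level there was 3237 CPM, against 181 to 463 in the other DIP2C+/- clones, 297 and 206 in E3 and C10 and 269 and 193 in the parental samples. The neighbouring SNORD83B was at 1129 CPM in G1-A5, within the 473 to 1365 of the other clones. Their host RPL3, a ribosomal protein gene, was at 2406 CPM in G1-A5 and 2046 to 2911 in the other clones. Of these 3 neighbouring rows SNORD83A was the one that stood apart in that library.

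**Figure D5:**
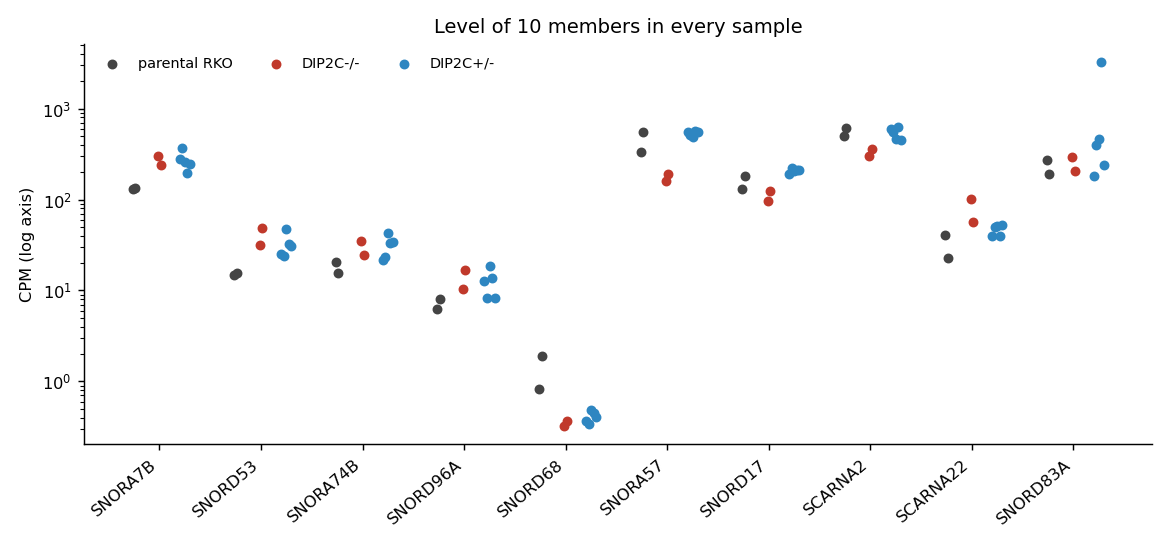
CPM (vertical log axis) of 10 members in every sample, 1 point per library, coloured by genotype. All knockout clones lie above the parental samples for SNORA7B, SNORD53, SNORA74B and SNORD96A and below them for SNORD68, SNORA57 is low in E3 and C10 alone (159.8 and 189.9 CPM), and G1-A5 is the high point of SNORD83A (3237 CPM).

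Members and host genes were weakly related in their genotype differences as well. Pearson's r between member and host log2 fold changes was 0.22 in DIP2C-/- clones, 0.25 in DIP2C+/- clones and 0.26 over all 7 (231 members of 138 hosts, which share the parental samples, with SCARNA17 paired with its own row). The median absolute log2 fold change in DIP2C-/- clones was 0.38 for the members and 0.19 for the hosts. EIF4A2 was at 296 and 355 CPM in parental cells and 128 to 225 in the clones, below both parental samples in all 7 (log2 fold change in DIP2C-/- -0.98, SE 0.26, edgeR adjusted p 0.308, 0.0024 to 0.768 over the alternatives). Its 4 members did not go with it, with log2 fold changes in DIP2C-/- clones from -0.02 to 0.53, and SNORA63 among them was at 631 and 419 CPM in parental cells and 664 and 486 in E3 and C10. SNHG12 had a log2 fold change of -1.10 (SE 0.49, adjusted p 0.388) in DIP2C-/- clones, and its 4 members ranged from -1.28 to 0.06 with a median of -0.84. One of them, SNORA44, was at 972 and 523 CPM in parental cells and 467 and 492 in E3 and C10. SNHG1 was at -0.80 (SE 0.29, adjusted p 0.34) and its 8 members at -1.11 to 0.22, with a median of -0.33.

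Genes whose products make and carry these RNAs showed no called change (edgeR adjusted p under 0.05) in any of the 4 comparisons, also with DESeq2. The smallest edgeR adjusted p over these lists was 0.359, among the assembly factors. Of the C/D core protein genes, 5 of 6 were tested, with none at an unadjusted p under 0.05. FBL, the methyltransferase, had log2 fold changes of 0.14 (SE 0.23) in DIP2C-/- and 0.23 (SE 0.20) in DIP2C+/- clones, and NOP56 and NOP58 had 0.19 and 0.16 in DIP2C-/- clones, where NOP56 was at -0.20 without RKOparental-1. All 4 H/ACA core genes were tested, again with none past that level, and DKC1, which encodes dyskerin, had -0.12 (SE 0.17) and 0.05 (SE 0.14). Of 12 tested assembly factor genes, TCOF1 was lower in DIP2C-/- clones (-0.36, SE 0.16) and NUFIP1 higher in DIP2C+/- clones (0.60, SE 0.23) without adjustment, and neither passed with it (adjusted p 0.38 and 0.399). None of 9 Cajal body and cap protein genes had an unadjusted p under 0.05, among them COIL, which encodes coilin (-0.06 and -0.04), and WRAP53, which carries H/ACA-type RNAs to Cajal bodies (-0.05 and 0.03). Of 8 debranching and trimming genes, the exosome nuclease DIS3 alone had one, in DIP2C-/- clones (0.47, SE 0.20, adjusted p 0.373, and 0.0475 with only the parental and DIP2C-/- samples fitted, where 12.6% of all genes were called), and the debranching enzyme DBR1 was at -0.28 (SE 0.22).

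Of the list of non-coding host genes 18 were tested, 17 of them non-coding and 1, TAF1D, annotated as protein-coding in RefSeq. Their median log2 fold change was -0.41 in DIP2C-/- and -0.15 in DIP2C+/- clones (-0.45 and -0.11 without TAF1D), against 0.02 over all genes. None was called, with a smallest edgeR adjusted p of 0.322 over the 4 comparisons. Lower in DIP2C-/- clones at an unadjusted p under 0.05 were 4 of the 18 (background 6.74%), SNHG1, SNHG12, ZFAS1 and DANCR, the last 2 at -0.64 (SE 0.26) and -0.51 (SE 0.20), with adjusted p of 0.366 and 0.355. In DIP2C+/- clones 2 were (background 5.05%), SNHG5 and SNHG9, at -0.75 (SE 0.29) and -1.59 (SE 0.61), both with an adjusted p of 0.399. SNHG5 was at 56.6 and 106.1 CPM in the parental samples and 30.4 to 64.3 in the DIP2C+/- clones, which overlapped. SNHG9 was at 1.21 and 3.13 CPM in the parental samples and 0.322 to 1.16 in the DIP2C+/- clones, all low levels. Leaving out 1 sample at a time, these log2 fold changes ran from -1.13 to -0.22 (SNHG5) and from -2.12 to -0.75 (SNHG9). DESeq2 called none of the 18. Without H9-A4 edgeR called SNHG1 in each comparison with parental cells and ZFAS1 over all 7 clones, where 4.76% to 8.95% of all genes were called. With only the parental and DIP2C-/- samples fitted it called SNHG1, SNHG12, ZFAS1 and DANCR, where 12.6% of all genes were called. The 18 had a median parental log2 ratio of -0.25, towards RKOparental-2, and this was not weighed against the values in the clones.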

How the data were processed

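Total RNA of parental RKO cells and DIP2C-targeted clones was isolated on RNeasy columns and sequenced on the Ion Proton system as 1 library per sample. The authors aligned reads to hg19 with TopHat2 (2.0.4) and quantified genes with Cufflinks, and deposited estimated counts per gene for each sample: nearly all low values are whole multiples of a step particular to the sample, 98.4% to 98.8% of them within 0.02 of a step. Library preparation and the treatment of reads with several matches are not given in the sources used here, and both could change counts of short RNAs and of near copies. The Cufflinks version is 2.2.1 in the submitters' processing notes, and the study's methods give another.

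Here the deposited estimated counts were rounded and fitted with edgeR (4.0.16, R 4.3.3) for all genes and 9 samples: filterByExpr by group (15532 genes), TMM scaling, 1 coefficient per group, the quasi-likelihood F-test, and Benjamini-Hochberg adjustment with a call at 0.05. SE is the log2 fold change over the root of F. CPM uses TMM-scaled totals, and log2 CPM a prior count of 2. No test was made of class sums, parental ratios or single clones. DESeq2 (1.42.0), other scalings, filters, sample sets and prior counts were alternatives. The members and lists were chosen with earlier results of these data known. Named members were those called, the most abundant (5 H/ACA, 5 C/D, 3 Cajal body), the 5 with the largest log2 fold change each way among groups that did not overlap in each comparison with parental cells, and the 3 with the largest parental ratio each way. Others are named as chosen after their values were seen, or as named with their host or neighbour.

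Lengths and hosts came from RefSeq (GRCh38.p14, 230 members by symbol and 11 by synonym), the hosts by position. The coordinates of 187 members came from GENCODE on GRCh37, and sequences from that genome. Intervals and floors cover counting error only. DESeq2 gave no adjusted p for genes it filtered. A host gene with several members, and a member within it that the rule named, are not reported here.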

Additional observations from a re-analysis of the deposited data

Results flagged for a closer look

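SNORD83A in clone G1-A5 lay far above the other DIP2C+/- clones, at 3237 CPM against 181 to 463. In CPM it was the only 1 of 51 sets of 5 clones examined (48 genes and 3 class sums) whose extreme clone was past Dixon's 95% critical value. Chance alone gives such a value in about 1 in 20 sets. The flag depends on the scale. As log2 CPM minus the parental mean, SNORD83A was at 3.83 in G1-A5 and from -0.33 to 1.02 in the other DIP2C+/- clones. On that scale SNORD98 was at -4.17 in F6-A7 and from -0.27 to 0.56 in the others. SNORD83B and the host RPL3 in the same clone were within the range of the other clones.

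SNORA57 was below the parental mean in both DIP2C-/- clones and above it in all 5 DIP2C+/- clones, with a log2 difference of 1.61 between the clones (edgeR adjusted p 0.130, and 5.2e-11 to 1 over the alternatives). SNORD17 showed the same opposite directions, with a log2 difference of 0.92 and an edgeR adjusted p of 0.878. The parental mean lay between samples that themselves differed, at 334 and 555 CPM for SNORA57 and 129 and 181 CPM for SNORD17.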

How the results depend on the processing

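Of 241 values of the class, clone and count results under the alternatives, 224 kept their size within the spread of replicates or within 1.5 times the count. The counts of called members were the ones that moved most: against 0 as reported, DESeq2's Wald test called 6 members in DIP2C-/- clones, 2 in DIP2C+/- clones, 2 over all 7 clones and 3 between the clones, and fits of the compared groups only called 19 in DIP2C-/- clones and 1 between the clones. Robust dispersion shrinkage, chosen after seeing the data, called 1 between the clones. Leaving out 1 sample at a time gave 0 to 5 calls in DIP2C-/- clones, 0 to 2 in DIP2C+/- clones, 0 to 5 over all 7 and 0 to 1 between the clones, with every call against parental cells coming from the fit without H9-A4. The C/D median ran from -0.21 to 0.43 in DIP2C-/- and -0.26 to 0.45 in DIP2C+/- clones, the H/ACA median from -0.40 to 0.13 and 0.06 to 0.36, and the Cajal body median from -0.41 to 0.054 in DIP2C-/- clones and from -0.028 to 0.26 in DIP2C+/- clones, and the log2 ratio of summed C/D CPM from -0.31 to 0.49 and from -0.37 to 0.43, with the upper values from leaving out RKOparental-1. Without SNORD83A, an alternative chosen after seeing the data, the C/D log2 ratios were 0.03 and -0.08. None of the 20 members with recomputed fold changes changed direction. Their groups did not overlap in the comparisons recomputed, so leaving out 1 sample could hardly reverse them, and this is no measure of their stability. Of 17 other genes 4 changed direction. Under library size only these were DKC1 (-0.0007) and WRAP53 (-0.0108) in DIP2C+/- clones. Leaving out 1 sample at a time, they were COIL (-0.1056 to 0.0225), DKC1 (-0.0447 to 0.1501) and WRAP53 (-0.0413 to 0.0995) in DIP2C+/- clones and NOP56 (-0.1965 to 0.6846) and WRAP53 (-0.2734 to 0.1111) in DIP2C-/- clones. The cause of these moves was not tested. No paired analysis was possible because only the parental samples carry replicate numbers in the labels. With 2 parental and 2 DIP2C-/- samples of high spread, the main fit called no difference of any size between them for these RNAs. Larger ones went uncalled as well, such as SNORA57 at a log2 fold change of -1.35. Members near the rule's limit rested on few counts. Where a left-out sample leaves a group with 1, that sample is assumed to vary like the others.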
